A study of Mus musculus with 12 samples.

Results

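The genes described here are 32 genes of glycolysis, lactate handling and the hypoxia response, followed in RNA from splenic natural killer (NK) cell preparations of C57BL/6 mice that lacked or carried the microRNA locus Mirc11 and were challenged or not challenged with Listeria. The 32 symbols were matched exactly to the symbol column of the deposited gene table, and all 32 were found once, among 50643 genes listed. All 32 also passed the filter on low counts, as did 16694 genes in all. There were 4 groups of 3 libraries: Mirc11-/- mice challenged with Listeria (KO challenged), Mirc11-/- mice without challenge (KO unchallenged), wild-type mice challenged with Listeria (WT challenged) and wild-type mice without challenge (WT unchallenged). Every group was of the C57BL/6 strain, and the cells of every group were NK cells enriched from spleen by negative selection, a method in which antibodies bind and remove the other cell types. No source used here gives the dose, route or time of the challenge, the age or sex of the mice, or the cells in which the locus was deleted. The series calls the 3 libraries of a condition biological replicates, but the labels do not tie a library to an animal. The p-values therefore judge each difference against the spread between libraries, estimated over all 12 together.

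Glycolysis turns glucose into pyruvate in the cytosol. Glucose enters through transporters, is phosphorylated and split in the upper steps, and yields ATP in the lower steps, after which lactate dehydrogenase can reduce pyruvate to lactate for export. Activated NK cells are known to raise glycolysis when they make cytokines and cytotoxic proteins. The hypoxia response runs through HIF-1, a transcription factor whose alpha subunit is hydroxylated by prolyl hydroxylases and degraded when oxygen is plentiful. Stabilised HIF-1 binds short DNA elements with the core ACGTG or GCGTG, and its known targets include most glycolytic genes together with genes of angiogenesis, collagen hydroxylation and mitophagy. In myeloid and lymphoid cells, inflammatory signals can also raise Hif1a transcription through NF-κB.

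Mirc11 names the mouse cluster of the Mir23a, Mir27a and Mir24-2 hairpins. Its main mature strands are shown because they define the genotype compared, with the seed (bases 2 to 8) in capitals, from RefSeq on GRCm38.p6:
miR-23a-3p, chr8:84208563-84208583, plus strand: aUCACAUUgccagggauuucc
miR-27a-3p, chr8:84208727-84208747, plus strand: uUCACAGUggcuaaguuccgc
miR-24-3p, chr8:84208875-84208896, plus strand: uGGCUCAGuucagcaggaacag
The 3 seeds differ from each other. miR-24-3p is also made from the Mir24-1 locus elsewhere in the genome. The 3 hairpin genes were listed at 0 counts in all 12 libraries of polyA RNA, so these rows do not check the genotype.

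The RefSeq promoter table held 43 windows of 250 bases before a start site for 29 of the 32 genes. Ndrg1, Slc2a3 and Bnip3l were not among them. ACGTG, on either strand, occurred in 48.8% of the 43 windows, in 16.6% of all 32851 windows of the table and in 20.7% of the 14098 windows of genes that were tested. GCGTG occurred in 55.8%, 28.2% and 41.8% of these same windows. At least 1 of the cores was present in 81.4% of these windows, against 38.6% of all windows and 52.8% of the windows of tested genes. The motifs can overlap, and the palindrome CACGTG counts on both strands. Some genes have more than 1 window, and windows of Aldoa, Eno1 and Pfkm overlap. The 43 windows are therefore not independent, and no share per gene is given. The windows below hold no exon in the annotation and are shown to let the letters be compared between 4 genes that rose after challenge (Ldha, Pgk1, P4ha1 and Hk2), 1 that fell in WT (Ldhb) and 1 that rose in WT alone by the test used (Vegfa). Capitals mark matches to ACGTG or GCGTG on either strand, each window is written 5′ to 3′ towards its gene, and the build is GRCm38.p6:
Ldha, chr7:46845554-46845803, plus strand: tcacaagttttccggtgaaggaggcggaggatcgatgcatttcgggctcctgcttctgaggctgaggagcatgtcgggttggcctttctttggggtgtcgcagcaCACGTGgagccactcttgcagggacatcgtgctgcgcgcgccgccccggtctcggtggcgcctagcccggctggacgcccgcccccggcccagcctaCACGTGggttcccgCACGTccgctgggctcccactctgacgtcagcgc
Pgk1, chrX:106186850-106187099, plus strand: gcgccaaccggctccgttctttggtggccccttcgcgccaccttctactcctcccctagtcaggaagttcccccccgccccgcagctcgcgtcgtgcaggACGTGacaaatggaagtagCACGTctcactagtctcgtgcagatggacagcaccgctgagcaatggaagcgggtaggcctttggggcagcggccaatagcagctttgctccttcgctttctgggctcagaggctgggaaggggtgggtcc
P4ha1, chr10:59323046-59323295, plus strand: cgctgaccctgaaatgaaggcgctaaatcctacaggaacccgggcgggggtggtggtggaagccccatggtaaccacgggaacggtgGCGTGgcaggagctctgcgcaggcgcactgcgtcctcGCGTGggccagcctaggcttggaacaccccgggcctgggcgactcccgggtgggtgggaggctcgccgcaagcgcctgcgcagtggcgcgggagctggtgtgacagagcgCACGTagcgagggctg
Hk2, chr6:82774455-82774704, minus strand: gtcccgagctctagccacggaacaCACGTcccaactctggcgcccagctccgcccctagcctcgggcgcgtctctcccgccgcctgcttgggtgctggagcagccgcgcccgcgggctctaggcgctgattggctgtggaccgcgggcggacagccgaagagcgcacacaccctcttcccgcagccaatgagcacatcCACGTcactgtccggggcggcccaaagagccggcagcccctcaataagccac
Ldhb, chr6:142507958-142508207, minus strand: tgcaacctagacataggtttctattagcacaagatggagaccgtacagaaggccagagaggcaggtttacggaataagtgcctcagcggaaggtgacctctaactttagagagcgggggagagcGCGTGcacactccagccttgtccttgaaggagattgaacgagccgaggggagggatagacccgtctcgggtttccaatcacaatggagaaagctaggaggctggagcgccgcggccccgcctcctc
Vegfa, chr17:46032378-46032627, minus strand: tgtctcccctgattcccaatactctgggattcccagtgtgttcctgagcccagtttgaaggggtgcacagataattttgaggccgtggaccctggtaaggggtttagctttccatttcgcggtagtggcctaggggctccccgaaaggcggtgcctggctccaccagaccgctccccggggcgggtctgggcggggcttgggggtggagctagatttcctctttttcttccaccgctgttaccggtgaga
The Ldha window holds 5 matches, the P4ha1 window 3, the Pgk1 and Hk2 windows 2 each, the Ldhb window 1 and the Vegfa window 0. The table holds a second Ldha window, with 1 match, and a second Vegfa window, with 2 matches, most of which is exon. The windows shown are a choice, and whether matches go with the response was not tested. Other exon-free windows hold 0 matches for Hk1, 1 for Eno1 and 4 for Slc16a1, which all rose in WT. Those of Pfkm, which passed in no comparison with all 12 libraries, hold 2 and 0. A match describes the letters only, and a window without one says nothing about sites outside it.

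Library totals lay between 17624530 and 23665679 counts, so that 1 count was worth 0.0423 to 0.0567 CPM, the count scaled to a common library total of 1000000. The summed level of 8 NK cell markers was 5721 to 6108 CPM in KO challenged and 7761 to 7806 CPM in KO unchallenged libraries. It was 4478 to 4616 CPM in WT challenged and 7357 to 8219 CPM in WT unchallenged libraries. Their median log2 response to challenge was -0.44 in KO and -1.49 in WT, where that over all genes tested was -0.01 in both. Ncr1 and Klrb1c were detected in every library but stood far lower in WT challenged libraries than in the others, with levels given at the end. Markers of other cells were present and differed between the groups. The sum of 15 neutrophil markers was 1056 to 1549, 557.7 to 578.5, 2076 to 2453 and 92.9 to 98.2 CPM in these same 4 groups, and that of 13 red cell markers was 20155 to 25209, 37004 to 41613, 1797 to 2376 and 11782 to 13762 CPM. The transcripts Xist and Ddx3y also differed: Xist was at 526 to 1027 CPM in KO challenged, 0.360 to 1.08 CPM in KO unchallenged, 1154 to 1464 CPM in WT challenged and 1198 to 2025 CPM in WT unchallenged libraries. Ddx3y, from the Y chromosome, was at 44.1 to 80.5 CPM in KO challenged and 83.6 to 135 CPM in KO unchallenged libraries, and at 0.133 CPM or less in every WT library except replicate 4 of WT unchallenged, which had 34.6 CPM. The KO challenged libraries carried both transcripts, and Xist differed with challenge in KO (log2 10.04 ± 0.45, edgeR adjusted p = 2.69e-07). In these libraries sex cannot be told apart from genotype, from challenge in KO or from the interaction of the pair, and the part of the other cells in the results was not tested.

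The first question was how the 32 genes differed after Listeria challenge in each genotype. In KO, 17 of the 32 rose after challenge and 0 fell (edgeR quasi-likelihood test, adjusted p under 0.05), against 15.6% and 11.5% of all genes tested (27.0% in either direction). For the 0, 3 members were lower at an unadjusted p under 0.05, and DESeq2 called 1 lower. In WT, 24 rose and 4 fell, against 32.4% and 30.9% of all genes tested (63.4% in either direction). The median log2 fold change of the 32 was 0.32 in KO and 0.93 in WT, where the median over all tested genes was -0.01 in both. In KO, 19 of the 32 were higher in every challenged library than in any unchallenged library, and 4 were lower in every challenged library, against 20.9% and 18.4% of all genes tested. In WT, these counts were 24 and 5, against 30.1% and 40.2%. The test of the difference itself, the interaction of genotype and challenge, found 21 members with a smaller (more negative) log2 response in KO and 3 with a larger one, against 18.5% and 16.7% of all genes tested (35.2% in either direction). The 2 genotypes' responses share no library, but they come from 1 fit with a common estimate of the spread. In such bulk RNA, fewer cells of a type and less RNA per cell cannot be told apart.

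**Figure D1:**
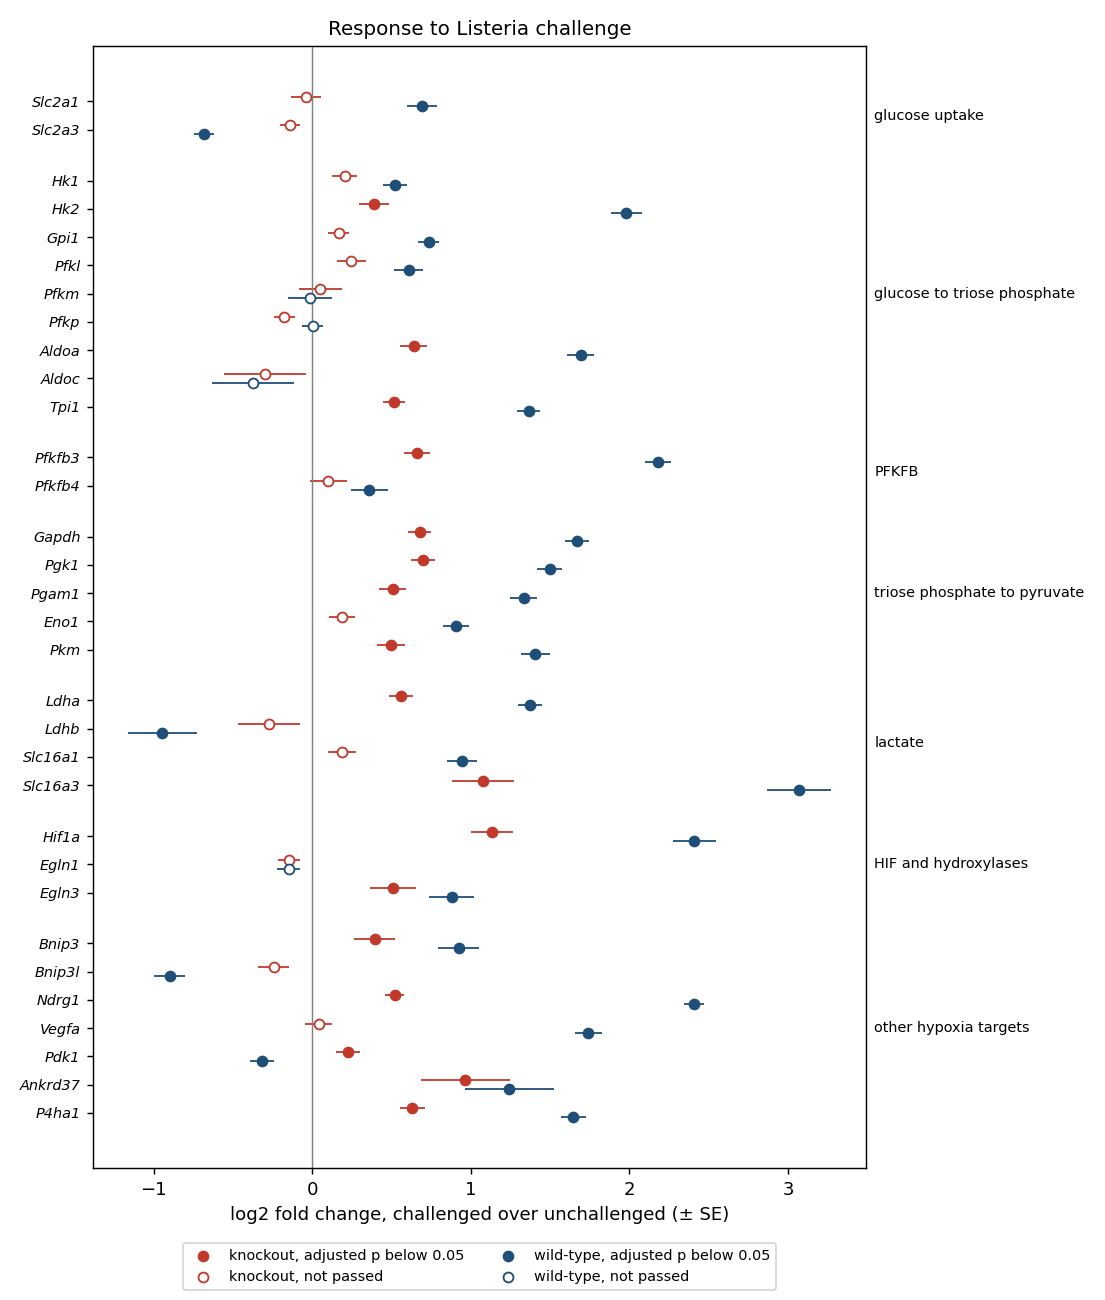
Log2 fold change of challenged over unchallenged libraries for the 32 genes, with KO and WT as separate points and bars of 1 standard error (3 libraries a group). Most KO points lie nearer to 0 than the WT points of the same gene, as for Ndrg1 at 0.52 in KO and 2.41 in WT.

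The second question was how KO differed from WT at each state. Without challenge, 3 of the 32 were higher in KO (Hk2, Slc16a1 and Bnip3l) and 1 was lower (Ndrg1), against 6.64% and 5.07% of all genes tested (11.7% in either direction), and the median log2 difference was 0.01. After challenge, 4 were higher in KO (Slc2a3, Ldhb, Bnip3l and Pdk1) and 21 were lower, against 22.7% and 25.9% of all genes tested (48.7% in either direction), with a median of -0.56. All KO libraries were above all WT libraries for 4 of the 32 without challenge and for 6 after it, against 14.4% and 31.4% of all genes tested, and below them for 5 and 20, against 18.2% and 22.3%. The comparison after challenge and the response of WT share the WT challenged libraries, so their counts are not independent.

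**Figure D2:**
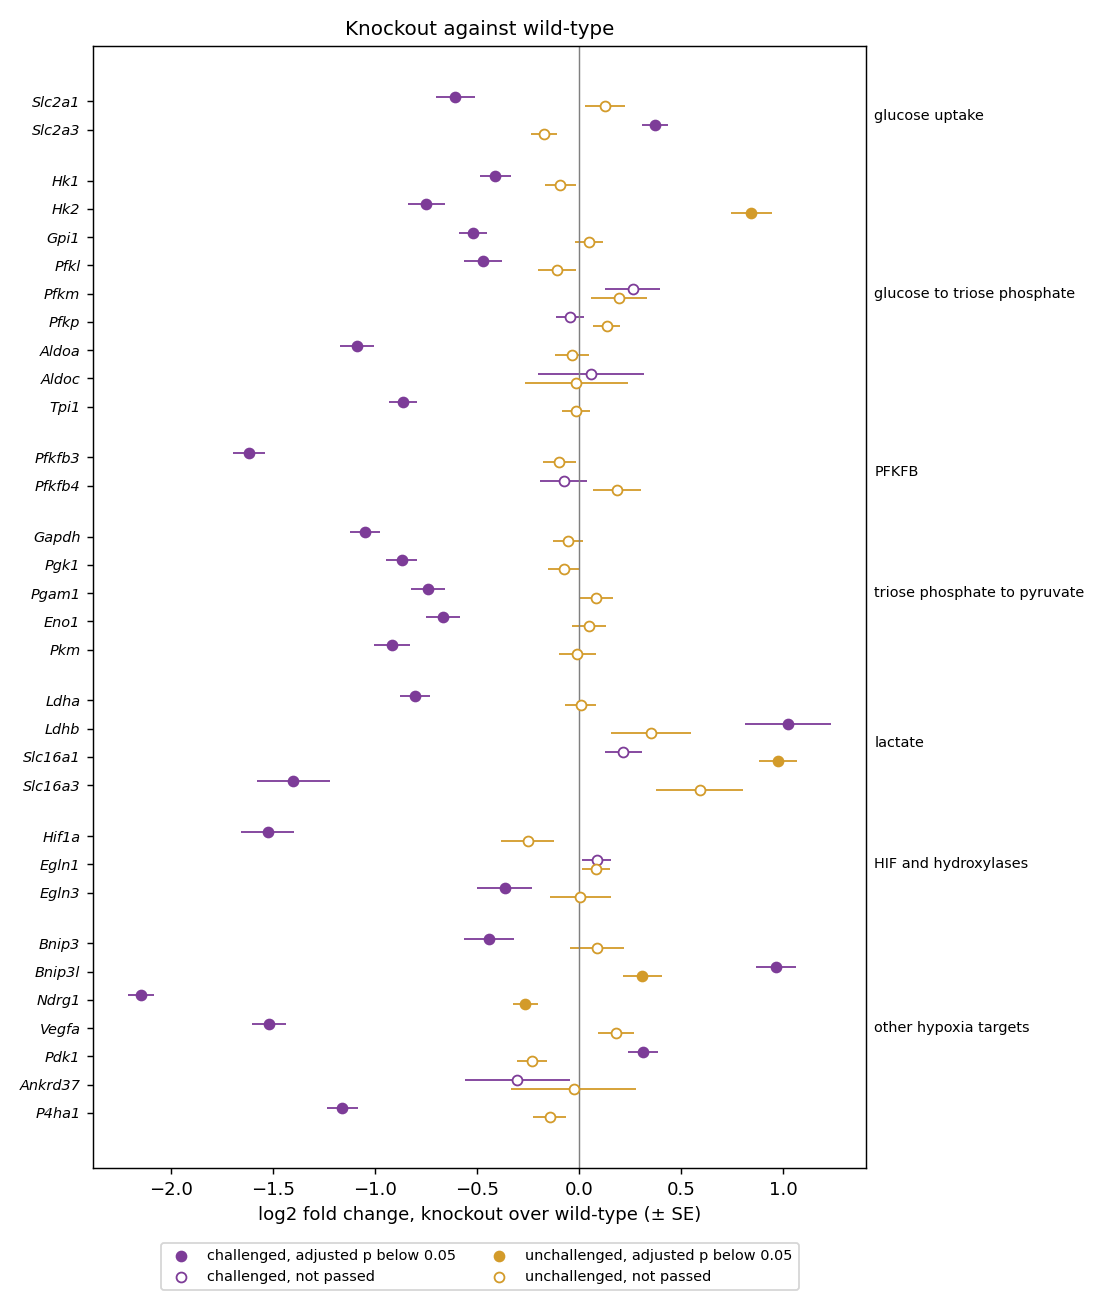
Log2 fold change of KO over WT for the 32 genes, in challenged and in unchallenged libraries, with bars of 1 standard error (3 libraries a group). The unchallenged points lie near 0 except for genes such as Slc16a1 at 0.98 and Hk2 at 0.84, while the challenged points reach -2.15 for Ndrg1.

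Both glucose transporters were well expressed, and they moved in opposite directions in WT. Slc2a1 (GLUT1), the transporter that activated lymphocytes use, had 66.5, 55.0 and 51.3 CPM in KO challenged and 57.3, 57.6 and 61.9 CPM in KO unchallenged libraries. It had 76.0, 87.2 and 83.4 CPM in WT challenged and 49.5, 55.9 and 58.5 CPM in WT unchallenged libraries. Every WT challenged library was above all the others, and the other 3 groups overlapped. On the log2 scale Slc2a1 was at -0.04 ± 0.10 in KO (SE, edgeR adjusted p = 0.798) and rose by 0.69 ± 0.10 in WT (adjusted p = 1.28e-05), and the responses differed by -0.73 ± 0.13 (adjusted p = 0.000598). Slc2a3 (GLUT3), a transporter of high affinity, had 123, 117 and 124 CPM in KO challenged, 132, 134 and 132 CPM in KO unchallenged, 81.2, 88.3 and 93.9 CPM in WT challenged and 152, 157 and 144 CPM in WT unchallenged libraries. Its 4 groups did not overlap at all. Slc2a3 was at -0.14 ± 0.06 in KO (adjusted p = 0.121), fell by 0.68 ± 0.06 in WT (adjusted p = 1.66e-07), and ended 0.37 ± 0.06 higher in challenged KO than in challenged WT libraries (adjusted p = 0.00018).

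The upper steps of glycolysis are covered by 9 genes, of which 3 rose in KO (15.6% of all genes tested did), 6 rose in WT (32.4% of all genes), and 6 were lower in KO than in WT after challenge (25.9% of all genes). Hk2, the inducible hexokinase that phosphorylates glucose, had 25.2, 23.8 and 21.0 CPM in KO challenged, 17.4, 18.7 and 17.1 CPM in KO unchallenged, 35.1, 36.5 and 38.6 CPM in WT challenged and 10.31, 10.998 and 8.69 CPM in WT unchallenged libraries. No pair of groups overlapped, and the 2 KO groups lay between the 2 WT groups. Hk2 rose 1.31-fold in KO (log2 0.39 ± 0.09, edgeR adjusted p = 0.00672) and 3.95-fold in WT (log2 1.98 ± 0.10, adjusted p = 1.47e-10). The KO level was higher than WT without challenge (log2 0.84 ± 0.10, adjusted p = 3.4e-05) and lower after it (log2 -0.75 ± 0.09, adjusted p = 7.49e-06). Hk1, the constitutive hexokinase, had 179 to 212 CPM in KO challenged and 163 to 181 CPM in KO unchallenged libraries, which overlapped (log2 0.20 ± 0.08, adjusted p = 0.0607). In WT it rose by 0.52 ± 0.08 on the log2 scale (adjusted p = 2.24e-05), with 234 to 263 CPM in challenged and 175 to 194 CPM in unchallenged libraries.

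Aldoa and Tpi1, the aldolase and triose phosphate isomerase that split the hexose and convert its products, rose in both genotypes. Aldoa had 439, 351 and 361 CPM in KO challenged, 234, 237 and 263 CPM in KO unchallenged, 759, 764 and 770.2 CPM in WT challenged and 245, 271 and 247 CPM in WT unchallenged libraries. The 2 unchallenged groups overlapped, and the challenged KO libraries lay between them and the challenged WT libraries. Its log2 response was 0.64 ± 0.08 in KO (adjusted p = 4.43e-05) and 1.69 ± 0.09 in WT (adjusted p = 1.69e-10), a difference of -1.05 ± 0.12 (adjusted p = 6.74e-06). Tpi1 had the same order of groups, at 153 to 176 CPM in KO challenged, 109 to 116 CPM in KO unchallenged, 259.5 to 285 CPM in WT challenged and 108 to 118 CPM in WT unchallenged libraries. Gpi1, the hexose phosphate isomerase, and Pfkl, the liver-type phosphofructokinase, did not pass in KO, at 0.17 ± 0.07 (adjusted p = 0.0859) and 0.25 ± 0.09 (adjusted p = 0.0605) on the log2 scale. In WT they rose by 0.73 ± 0.07 and 0.61 ± 0.09, and the responses of Gpi1 differed by -0.57 ± 0.10 (adjusted p = 0.00032). The smaller response of Hk1 in KO (-0.32 ± 0.11, adjusted p = 0.0308) missed the threshold in 8 of 22 alternatives and that of Pfkl (-0.36 ± 0.13, adjusted p = 0.0417) in 13 of 22. For Hk1 these included leaving out replicate 2 of KO challenged, 4 of KO unchallenged, 3 of WT challenged, or 2 or 4 of WT unchallenged (adjusted p up to 0.0822), and for Pfkl leaving out any 1 library except replicate 1 of either challenged group and replicate 2 of KO unchallenged (adjusted p up to 0.105). Without replicate 2 of KO challenged, the rises of Hk1, Pfkl and Gpi1 in KO passed as well (adjusted p = 0.00803, 0.00643 and 0.0458). The other phosphofructokinases, Pfkp at 232 to 299 CPM and Pfkm at 11.9 to 19.3 CPM over all 12 libraries, did not pass in any comparison with all 12 libraries, and neither did the aldolase Aldoc at 1.299 to 3.02 CPM. Pfkp passed as lower after challenge in KO without replicate 1 of KO challenged (adjusted p = 0.0132), as did the difference of its responses (adjusted p = 0.0425). Pfkm passed as higher in challenged KO libraries without replicate 2 of KO challenged (adjusted p = 0.034), and Aldoc as lower after challenge in WT without replicate 2 of WT unchallenged (adjusted p = 0.0492). Pfkm lies across from Senp1 on the opposite strand (103 CPM), and no source used here gives the strand used in counting.

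Pfkfb3 and Pfkfb4 make and break down fructose 2,6-bisphosphate, the activator of phosphofructokinase. Pfkfb3, whose kinase activity dominates, had 110.5, 102 and 85.7 CPM in KO challenged, 65.1, 61.2 and 61.6 CPM in KO unchallenged, 279, 287 and 293 CPM in WT challenged and 66.1, 73.1 and 64.4 CPM in WT unchallenged libraries. Every challenged library was above every unchallenged one, and the challenged KO libraries were all far below the challenged WT libraries. Pfkfb3 rose 1.58-fold in KO (log2 0.66 ± 0.08, edgeR adjusted p = 2.42e-05) and 4.53-fold in WT (log2 2.18 ± 0.08, adjusted p = 7.68e-12), and the responses differed by -1.52 ± 0.11 (adjusted p = 1.41e-07). After challenge it was 3.07-fold lower in KO than in WT (log2 -1.62 ± 0.08, adjusted p = 7.05e-10). Pfkfb4 was at 11.7 to 16.4 CPM over all libraries. It rose in WT by 0.36 ± 0.12 (adjusted p = 0.0142), a call that was lost without replicate 2 of WT challenged (adjusted p = 0.0588), without replicate 4 of WT unchallenged (adjusted p = 0.0569) and under other scalings.

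**Figure D3:**
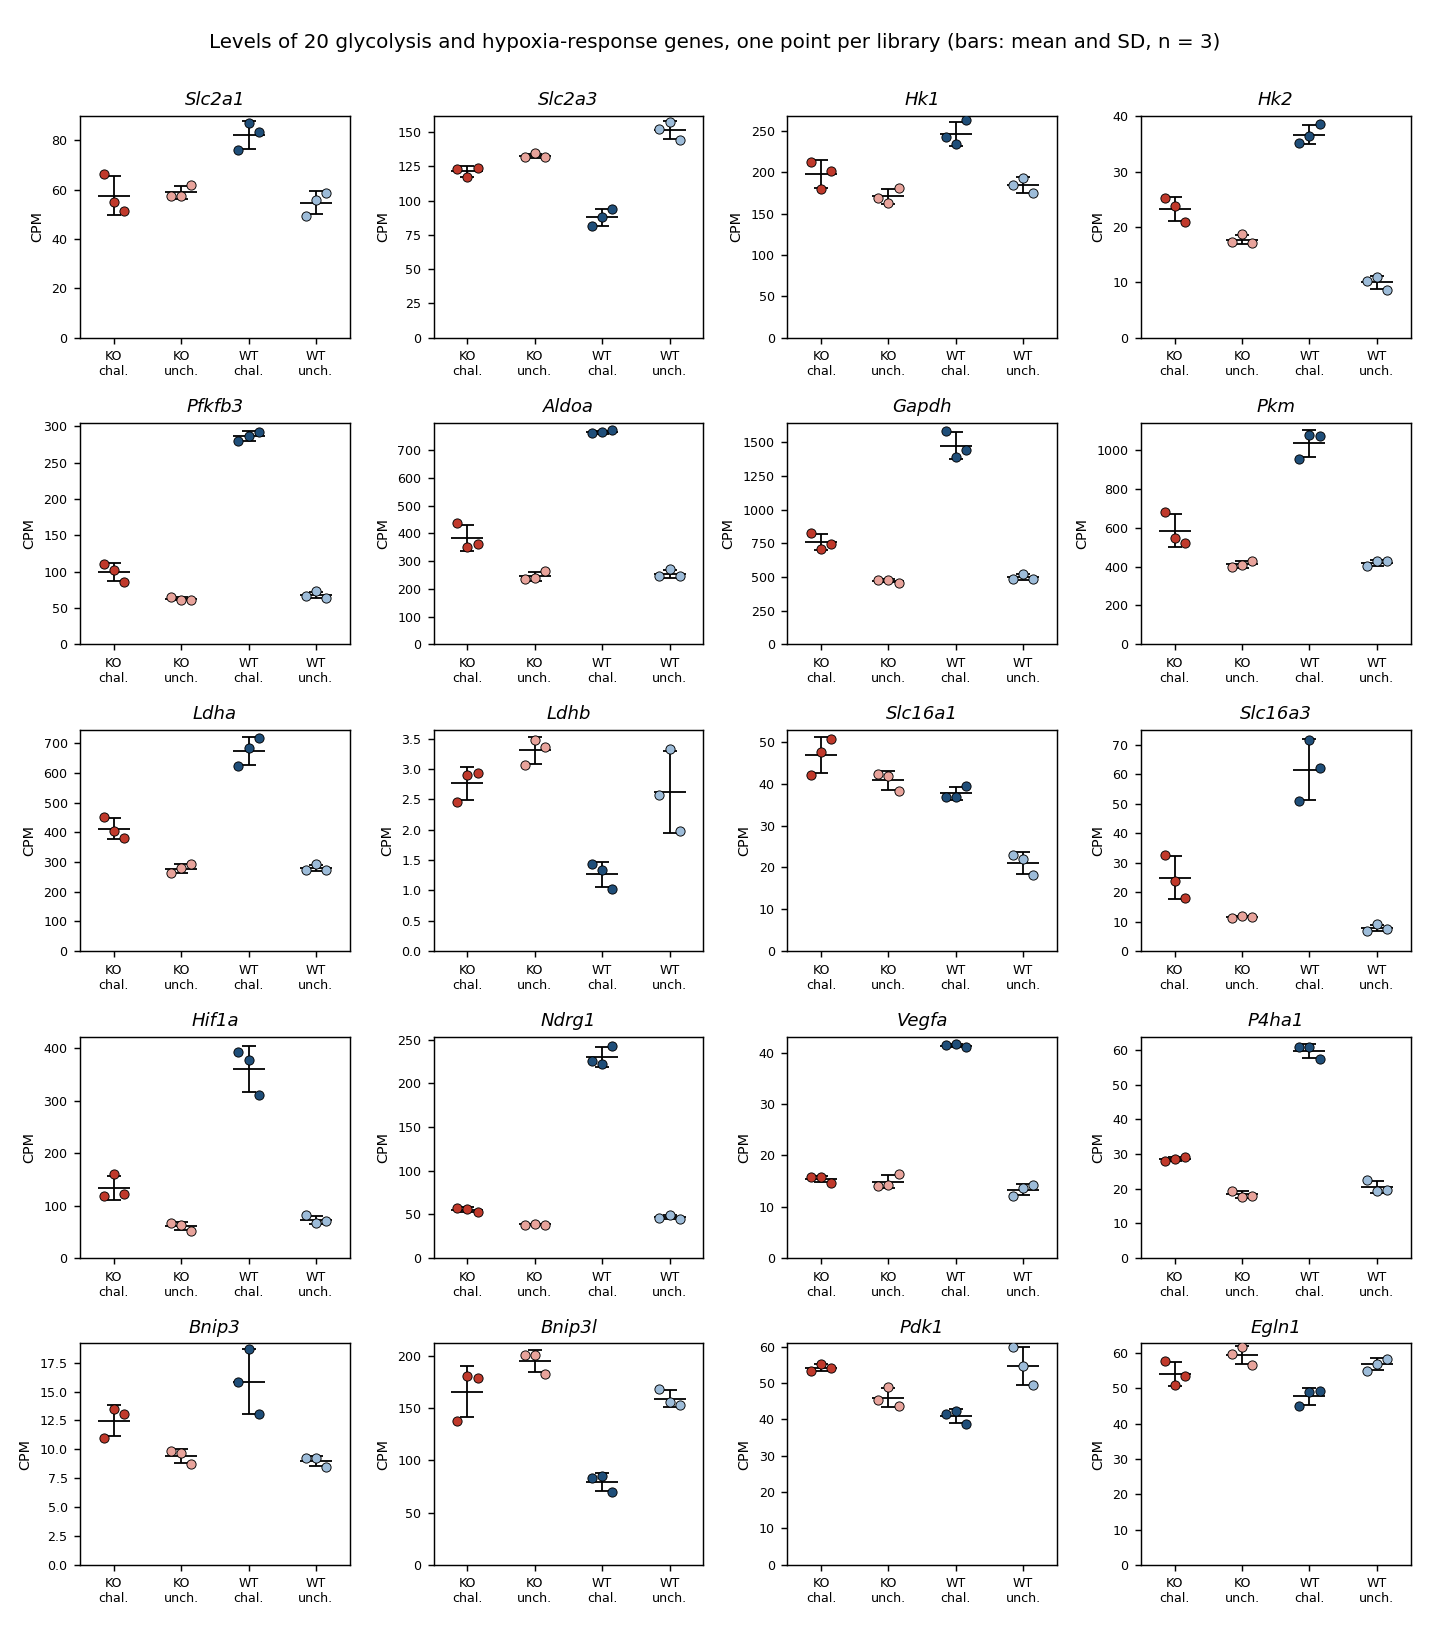
CPM in every library for 20 of the 32 genes, 1 panel each with its own axis from 0, with KO challenged, KO unchallenged, WT challenged and WT unchallenged libraries from left to right and 3 points a group. Pfkfb3, Ndrg1, Hif1a and Slc16a3 stand highest in WT challenged libraries, while Slc2a3, Ldhb and Bnip3l stand lowest there.

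The lower steps are covered by 5 genes, of which 4 rose in KO and all 5 in WT, and all 5 were lower in KO than in WT after challenge, where the shares of all genes tested were 15.6%, 32.4% and 25.9%. Gapdh, which oxidises glyceraldehyde 3-phosphate and is often used as a constant reference gene, had 829.9, 708 and 744 CPM in KO challenged, 481, 478 and 459 CPM in KO unchallenged, 1588, 1394 and 1442 CPM in WT challenged and 487, 523 and 483 CPM in WT unchallenged libraries. The challenged KO libraries lay between the unchallenged libraries and the challenged WT libraries with no overlap. Gapdh rose 1.60-fold in KO (log2 0.68 ± 0.07, edgeR adjusted p = 7.47e-06) and 3.18-fold in WT (log2 1.67 ± 0.08, adjusted p = 4.72e-11). Pkm, pyruvate kinase, had 682, 549 and 523 CPM in KO challenged, 396, 410.0 and 429 CPM in KO unchallenged, 955, 1078 and 1070 CPM in WT challenged and 402, 429 and 426 CPM in WT unchallenged libraries. It followed the order of Gapdh, with responses of 0.50 ± 0.09 in KO (adjusted p = 0.00071) and 1.41 ± 0.09 in WT (adjusted p = 2.66e-09). Pgk1, the first ATP-yielding kinase of the pathway, is X-linked and had 176 to 214 CPM in KO challenged, 121 to 122 CPM in KO unchallenged, 308 to 364 CPM in WT challenged and 127 to 133 CPM in WT unchallenged libraries. Its response was 0.70 ± 0.08 in KO and 1.497 ± 0.077 in WT, a difference of -0.80 ± 0.11 (adjusted p = 3.8e-05). Pgam1, a phosphoglycerate mutase, rose by 0.51 ± 0.08 in KO and 1.33 ± 0.08 in WT. Eno1, the enolase, had 560.1, 442 and 469.8 CPM in KO challenged and 409.5, 428 and 448 CPM in KO unchallenged libraries, which overlapped. It was at 0.19 ± 0.08 in KO (adjusted p = 0.114) and rose by 0.91 ± 0.08 in WT (adjusted p = 1.68e-07). Without replicate 2 of KO challenged, Eno1 passed in KO as well (adjusted p = 0.023). Without challenge, the log2 differences of these 5 genes between KO and WT were -0.07 to 0.08 (edgeR adjusted p of 0.655 to 0.979). Processed copies of Pgk1, Pgam1, Eno1, Ldha and Gapdh were listed at means of at most 3.51 CPM in any group, and adding them to their genes changed no count of calls among the 32 genes.

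Summed over the 16 enzymes from hexokinase to lactate dehydrogenase, the share of all counts was 0.454%, 0.387% and 0.385% in KO challenged, 0.299%, 0.304% and 0.317% in KO unchallenged, 0.649%, 0.668% and 0.684% in WT challenged and 0.301%, 0.319% and 0.307% in WT unchallenged libraries. The unchallenged groups overlapped. Every challenged KO library was above every unchallenged library and below every challenged WT library. The sum of 15 neutrophil markers moved in the same order of group means except without challenge, where it was higher in KO. The markers in it did not all move alike. In KO, 11 rose and 4 fell after challenge, where 15.6% and 11.5% of all genes tested did. After challenge, 5 were higher and 10 lower in KO than in WT, where the shares of all genes were 22.7% and 25.9%. The sum of 14 macrophage and monocyte markers was 1377 to 1712 CPM in KO challenged, 1264 to 1304 CPM in KO unchallenged, 1821 to 2065 CPM in WT challenged and 1135 to 1171 CPM in WT unchallenged libraries. The part of these cells in the enzyme sums was not tested.

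**Figure D4:**
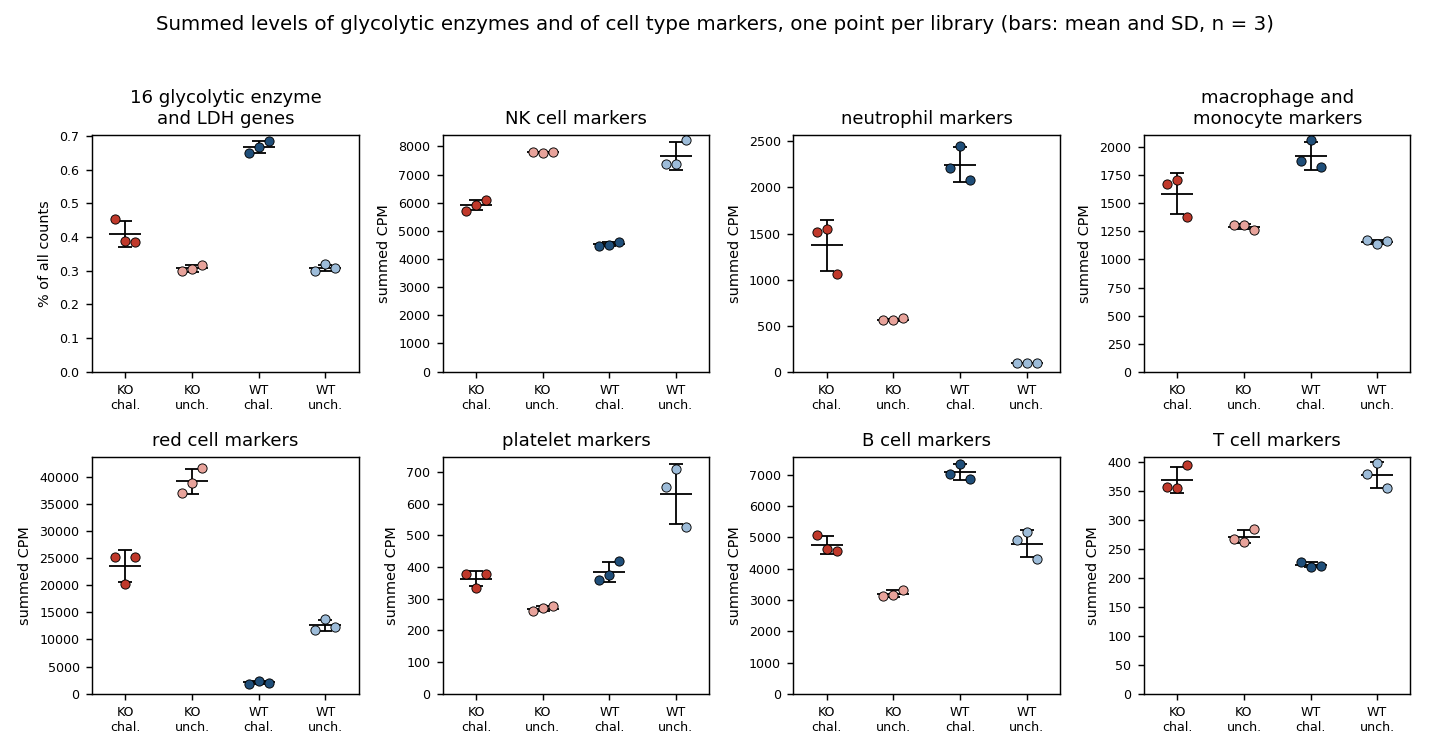
Share of all counts taken by the 16 glycolytic enzymes (percent) and summed CPM of 7 cell type marker lists in each of the 12 libraries, with KO challenged, KO unchallenged, WT challenged and WT unchallenged libraries from left to right. The enzyme share stands at 0.385% to 0.454% in KO challenged and at 0.649% to 0.684% in WT challenged libraries, and the red cell sum is lowest in WT challenged libraries.

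Lactate handling gave the widest range of responses. Ldha, the lactate dehydrogenase subunit that favours lactate, had 453, 406 and 380.3 CPM in KO challenged, 262, 280.3 and 292 CPM in KO unchallenged, 624, 685 and 717 CPM in WT challenged and 275, 293 and 272 CPM in WT unchallenged libraries. The challenged KO libraries again lay between the other challenged libraries and the unchallenged ones. Ldha rose by 0.56 ± 0.08 in KO (edgeR adjusted p = 5.5e-05) and by 1.37 ± 0.08 in WT (adjusted p = 4.79e-10). Ldhb, the subunit that favours pyruvate, was scarce, with 23 to 77 counts a library. It had 2.45, 2.90 and 2.93 CPM in KO challenged, 3.06, 3.48 and 3.37 CPM in KO unchallenged, 1.43, 1.33 and 1.03 CPM in WT challenged and 2.56, 3.33 and 1.98 CPM in WT unchallenged libraries. The WT challenged libraries were below all others. Ldhb was at -0.27 ± 0.19 in KO (adjusted p = 0.336) and fell by 0.94 ± 0.22 in WT (adjusted p = 0.00133), and the difference between these responses did not pass (0.67 ± 0.29, adjusted p = 0.0859). It passed without replicate 4 of WT unchallenged (adjusted p = 0.0355) and with column totals (adjusted p = 0.0467).

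The monocarboxylate transporters differed in where the genotypes parted. Slc16a3 (MCT4), the exporter of highly glycolytic cells, had 32.5, 23.9 and 17.99 CPM in KO challenged, 11.4, 11.9 and 11.7 CPM in KO unchallenged, 50.9, 71.4 and 62.2 CPM in WT challenged and 6.98, 9.16 and 7.42 CPM in WT unchallenged libraries. None of the 4 groups overlapped, and the KO challenged libraries were the most spread for their mean. Slc16a3 rose 2.11-fold in KO (log2 1.08 ± 0.19, edgeR adjusted p = 0.0013) and 8.40-fold in WT (log2 3.07 ± 0.20, adjusted p = 3.32e-08), the largest WT response of the 32 genes. The responses differed by -1.99 ± 0.28 (adjusted p = 0.000134). Without challenge its level was higher in KO by 0.59 ± 0.21 (adjusted p = 0.105), which passed in DESeq2, in a fit of the compared libraries alone and without replicate 1 or 3 of KO challenged (adjusted p = 0.0166 and 0.0273). Slc16a1 (MCT1), which carries lactate in both directions, had 42.1, 47.7 and 50.8 CPM in KO challenged, 42.4, 41.9 and 38.2 CPM in KO unchallenged, 36.9, 36.8 and 39.5 CPM in WT challenged and 23.0, 22.0 and 18.1 CPM in WT unchallenged libraries. The WT unchallenged libraries were below all the others. Slc16a1 was at 0.19 ± 0.09 in KO (adjusted p = 0.145, and 0.0493 without replicate 1 of KO challenged) and rose by 0.95 ± 0.09 in WT (adjusted p = 3.87e-07), and its level without challenge was 0.98 ± 0.09 higher in KO (adjusted p = 4.4e-06). After challenge the KO and WT levels differed by 0.22 ± 0.09 (adjusted p = 0.0593), which passed in 8 of 23 alternatives, among them leaving out replicate 1 of KO challenged (adjusted p = 0.0187) or replicate 3 or 4 of WT unchallenged (adjusted p = 0.0401 and 0.0384). Red cells also carry this transporter, and the sum of 13 red cell markers was highest in KO unchallenged and lowest in WT challenged libraries. The part of red cells in the Slc16a1 levels was not tested.

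Among the oxygen-sensing genes, Hif1a, which encodes the regulated subunit of HIF-1, had 119, 161 and 122 CPM in KO challenged, 66.6, 63.4 and 51.6 CPM in KO unchallenged, 393, 379 and 311 CPM in WT challenged and 81.5, 66.3 and 71.2 CPM in WT unchallenged libraries. Every challenged library exceeded every unchallenged one, and the challenged KO libraries reached at most 161 CPM where the lowest challenged WT library had 311 CPM. Hif1a mRNA rose 2.197-fold in KO (log2 1.14 ± 0.13, edgeR adjusted p = 3.22e-05) and 5.32-fold in WT (log2 2.41 ± 0.13, adjusted p = 3.45e-09). It was 2.88-fold lower in KO than in WT after challenge (log2 -1.53 ± 0.13, adjusted p = 5.83e-07) and did not pass without it (log2 -0.25, adjusted p = 0.294). HIF-1 activity is set largely by protein stability, which these libraries do not measure. Egln1 (PHD2), the main hydroxylase that marks HIF-1 alpha for degradation, was at 45.0 to 61.7 CPM over all libraries and did not pass in any comparison. In WT it was at -0.15 ± 0.07 (adjusted p = 0.0777) and passed as lower in 4 of 23 alternatives, among them leaving out replicate 2 of KO challenged (adjusted p = 0.0432). In KO it was at -0.14 ± 0.07 (adjusted p = 0.148) and passed as lower without replicate 1 of KO challenged (adjusted p = 0.0429). Egln3 (PHD3), a hydroxylase that HIF-1 itself induces, was scarce at 3.90 to 4.22 CPM in KO challenged, 2.49 to 3.17 CPM in KO unchallenged, 4.71 to 5.01 CPM in WT challenged and 2.59 to 3.00 CPM in WT unchallenged libraries. It rose by 0.51 ± 0.14 in KO (adjusted p = 0.0154) and 0.88 ± 0.14 in WT (adjusted p = 6.33e-05). The KO call was lost in 4 alternatives, among them leaving out replicate 3 of KO unchallenged (adjusted p = 0.0799). The lower level in challenged KO than in challenged WT libraries (-0.36 ± 0.14, adjusted p = 0.0371) was lost in 14 of 23 alternatives, among them leaving out any 1 challenged library (adjusted p of 0.0577 to 0.0883) or replicate 3 of WT unchallenged (adjusted p = 0.0615).

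Of the 7 hypoxia targets outside glycolysis, Ndrg1, Vegfa and P4ha1 stood highest in WT challenged libraries. Ndrg1, a stress-responsive gene with a strong hypoxic induction, had 57.8, 55.8 and 52.7 CPM in KO challenged, 38.0, 39.1 and 38.2 CPM in KO unchallenged, 225, 222 and 244 CPM in WT challenged and 46.2, 49.1 and 44.9 CPM in WT unchallenged libraries. No groups overlapped, and the spread within each was small beside the gaps. Ndrg1 rose 1.43-fold in KO (log2 0.52 ± 0.06, edgeR adjusted p = 1.92e-05) and 5.30-fold in WT (log2 2.41 ± 0.06, adjusted p = 3.27e-13). After challenge it was 4.44-fold lower in KO than in WT (log2 -2.15 ± 0.06, adjusted p = 6.23e-12), the largest genotype difference of the 32. Its lower level in KO without challenge (-0.26 ± 0.06, adjusted p = 0.0111) was lost without replicate 2 of KO unchallenged (adjusted p = 0.0501) and without replicate 3 of WT unchallenged (adjusted p = 0.0874). Vegfa, the angiogenic growth factor, had 15.7, 15.9 and 14.7 CPM in KO challenged, 14.1, 14.2 and 16.4 CPM in KO unchallenged, 41.5, 41.6 and 41.1 CPM in WT challenged and 12.2, 13.6 and 14.2 CPM in WT unchallenged libraries. Only the WT challenged libraries stood apart. Vegfa was at 0.04 ± 0.09 in KO (adjusted p = 0.783) and rose 3.34-fold in WT (log2 1.74 ± 0.09, adjusted p = 1.18e-10), and the responses differed by -1.70 ± 0.12 (adjusted p = 8.82e-08).

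P4ha1, a collagen prolyl hydroxylase subunit, had 27.9, 28.5 and 29.1 CPM in KO challenged, 19.3, 17.6 and 17.97 CPM in KO unchallenged, 60.9, 60.7 and 57.4 CPM in WT challenged and 22.6, 19.2 and 19.7 CPM in WT unchallenged libraries. Both challenged groups were above both unchallenged groups. P4ha1 rose by 0.63 ± 0.08 in KO (edgeR adjusted p = 2.47e-05) and 1.65 ± 0.08 in WT (adjusted p = 6.67e-11). Ankrd37, a small HIF-1 target, was near the floor of these libraries, with 16 to 98 counts. It rose by 0.97 ± 0.28 in KO (adjusted p = 0.0194) and 1.24 ± 0.28 in WT (adjusted p = 0.0012). The KO call was lost without replicate 1 of KO challenged and without any 1 of the 3 KO unchallenged libraries (adjusted p of 0.0507 to 0.0615). Ankrd37 overlaps Ufsp2 on the opposite strand, which had 20.9 CPM on average where Ankrd37 had 2.17 CPM, so its reads are uncertain.

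The mitophagy receptors Bnip3 and Bnip3l went in opposite directions in WT. Bnip3 had 10.9, 13.4 and 13.1 CPM in KO challenged, 9.87, 9.63 and 8.76 CPM in KO unchallenged, 15.8, 18.7 and 13.1 CPM in WT challenged and 9.22, 9.26 and 8.48 CPM in WT unchallenged libraries. Replicate 3 of WT challenged lay among the challenged KO libraries, and both challenged groups were above the unchallenged ones. Bnip3 rose by 0.39 ± 0.13 in KO (edgeR adjusted p = 0.0335) and by 0.92 ± 0.13 in WT (adjusted p = 1.39e-05). The KO call was lost in 8 of 23 alternatives, among them leaving out any KO library except replicate 1 of KO challenged (adjusted p of 0.0587 to 0.118). Its smaller response in KO (-0.53 ± 0.18, adjusted p = 0.034) was lost in 11 of 22, among them leaving out 8 of the 12 libraries in turn (adjusted p of 0.0528 to 0.0947). The lower level in challenged KO than in challenged WT libraries (-0.44 ± 0.12, adjusted p = 0.00816) was lost without replicate 2 of WT challenged (adjusted p = 0.0558). Bnip3l (Nix), which clears mitochondria from maturing red cells, had 138, 181 and 179 CPM in KO challenged, 201, 201 and 183 CPM in KO unchallenged, 83.5, 84.8 and 69.8 CPM in WT challenged and 168, 156 and 153 CPM in WT unchallenged libraries. The WT challenged libraries were below all others. Bnip3l was at -0.24 ± 0.10 in KO (adjusted p = 0.076), fell by 0.90 ± 0.10 in WT (adjusted p = 1.03e-06), and ended 0.97 ± 0.10 higher in challenged KO than in challenged WT libraries (adjusted p = 1.07e-06). Its higher level in KO without challenge (0.31 ± 0.10, adjusted p = 0.0489) was lost in 14 of 23 alternatives, among them leaving out any 1 unchallenged library (adjusted p of 0.0592 to 0.167) or replicate 1 or 2 of WT challenged (adjusted p = 0.0563 and 0.0627). The red cell genes Slc4a1, the band 3 anion exchanger, at 377 to 535, 711 to 763, 1.88 to 2.89 and 108 to 158 CPM in KO challenged, KO unchallenged, WT challenged and WT unchallenged libraries, and Bpgm, the red cell mutase, at 150 to 180, 233 to 251, 22.3 to 23.4 and 89.4 to 93.3 CPM, had the same order of groups as Bnip3l. The part of red cells in the Bnip3l levels was not tested.

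Pdk1, the kinase that inactivates pyruvate dehydrogenase and so keeps pyruvate out of mitochondria, fell in WT, as Bnip3l did, but rose in KO. It had 53.4, 55.2 and 54.0 CPM in KO challenged, 45.2, 48.9 and 43.8 CPM in KO unchallenged, 41.5, 42.3 and 38.7 CPM in WT challenged and 59.9, 54.7 and 49.4 CPM in WT unchallenged libraries. In KO the challenged libraries were above the unchallenged ones, and in WT they were below. Without challenge every KO library was below every WT library (log2 -0.23 ± 0.08, edgeR adjusted p = 0.0639). That difference passed without replicate 4 of WT unchallenged (adjusted p = 0.0277) and with column totals (adjusted p = 0.0444). The challenged KO libraries lay within the range of the unchallenged WT libraries. Pdk1 rose by 0.23 ± 0.08 in KO (edgeR adjusted p = 0.0353) and fell by 0.32 ± 0.08 in WT (adjusted p = 0.00191), and the responses differed by 0.54 ± 0.11 (adjusted p = 0.001). The KO call was lost in 8 of 23 alternatives, among them leaving out replicate 2 or 3 of KO challenged or replicate 2 or 4 of KO unchallenged (adjusted p of 0.0585 to 0.130).

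Within families, levels can be set side by side once divided by length. On the scale of CPM per kilobase of merged exons, Slc2a1 took 49.4% ± 3.3 of the 2 glucose transporters in KO challenged, 47.9% ± 1.2 in KO unchallenged, 65.9% ± 1.2 in WT challenged and 42.7% ± 2.7 in WT unchallenged libraries (SD, n = 3 each). Slc16a3 took 30.4% ± 8.2, 19.3% ± 1.0, 57.3% ± 4.2 and 23.8% ± 3.1 of the 2 lactate transporters in these same groups, so its mean share passed that of Slc16a1 in WT challenged libraries but not in the other 3 groups. Hk2 took 14.4% ± 1.5, 12.9% ± 1.1, 17.5% ± 0.58 and 7.17% ± 0.47 of the 2 hexokinases, and Hk1 the remainder in every group. Hexokinase 3, a myeloid isozyme outside the 32, was at 44.4 to 77.3, 34.2 to 38.5, 90.2 to 111 and 20.1 to 22.2 CPM. Pfkfb3 took 80.8% ± 2.2, 74.3% ± 3.2, 92.5% ± 0.48 and 77.7% ± 0.85 of the 2 bifunctional enzymes. Pfkl took 30.5% ± 2.0, 25.3% ± 0.47, 38.1% ± 1.6 and 28.8% ± 0.64 of the 3 phosphofructokinases, where Pfkp held 55.2%, 61.1%, 51.1% and 58.7%. Bnip3 took 11.4% ± 0.44, 7.61% ± 0.10, 25.3% ± 1.7 and 8.79% ± 0.36 of the 2 mitophagy receptors. Ldhb took 1.40% ± 0.24, 2.44% ± 0.10, 0.397% ± 0.09 and 1.93% ± 0.41 of the 2 lactate dehydrogenase subunits, and Aldoa 99.1% or more of the 2 aldolases in each group mean.

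**Figure D5:**
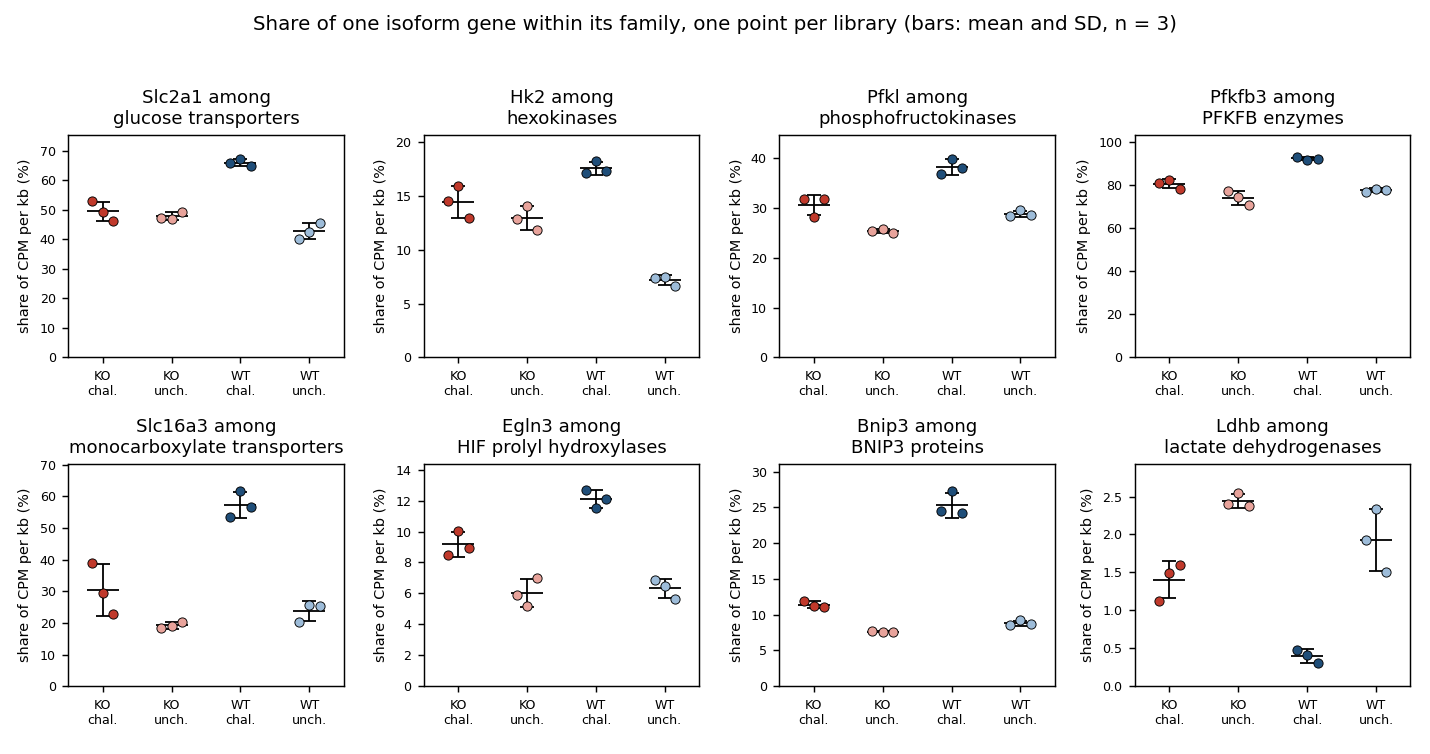
Share of a gene in the summed CPM per kilobase of its family (percent) for 8 genes in each library, with KO challenged, KO unchallenged, WT challenged and WT unchallenged libraries from left to right and 3 points a group. Slc2a1, Slc16a3, Pfkfb3 and Bnip3 take their largest shares in WT challenged libraries and Ldhb its smallest.

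Other genes of the same pathways are set beside the shares of all genes tested, which were 15.6% higher and 11.5% lower after challenge in KO, 32.4% and 30.9% in WT, and 22.7% higher and 25.9% lower in KO than in WT after challenge. Of 23 tested glycolysis genes outside the 32, 4 rose and 3 fell in KO, 11 rose and 8 fell in WT, and after challenge 7 were higher and 9 lower in KO than in WT, with shares in KO near those of all genes. The myeloid hexokinase Hk3 rose by 0.76 ± 0.16 in KO (edgeR adjusted p = 0.00323) and 2.38 ± 0.16 in WT (adjusted p = 5.11e-08), while the red cell gene Bpgm fell by 0.58 ± 0.07 in KO (adjusted p = 2.09e-05) and 1.89 ± 0.08 in WT (adjusted p = 1.4e-11). Of 31 tested hypoxia targets outside the 32, 8 rose and 1 fell in KO, 15 rose and 4 fell in WT, and 16 were lower and 5 higher in KO than in WT after challenge. Hmox1, haem oxygenase 1, rose by 1.49 ± 0.08 in KO and 2.21 ± 0.09 in WT. Mif, the cytokine macrophage migration inhibitory factor, which HIF-1 induces, rose by 0.90 ± 0.10 in KO and 1.73 ± 0.10 in WT. Of 19 tested genes that regulate HIF-1, 3 rose and 3 fell in KO, and 8 rose and 5 fell in WT. Myc, a transcription factor that also drives glycolytic genes, rose by 0.56 ± 0.07 in KO (adjusted p = 2.76e-05) and 1.16 ± 0.07 in WT (adjusted p = 1.1e-09). Epas1, the HIF-2 alpha subunit, was at -0.02 in KO and rose by 1.75 ± 0.12 in WT (adjusted p = 6.55e-09).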

How the data were processed

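The deposited table holds whole-number read counts per gene for 12 libraries, which the authors made with bcl2fastq, Trim Galore 0.4.1, Bowtie2 2.2.8 and RSEM 1.3.0 on GRCm38, per the submitters' processing notes. RSEM gives estimated counts, and no source used here says at which step they became whole numbers. RNA was taken in Trizol and made into Illumina TruSeq libraries of polyA RNA, per the labels' protocols. CPM values were computed from column totals. Tests ran on the counts of 16694 genes kept by filterByExpr, with TMM scaling and edgeR 4.0.16 quasi-likelihood tests (limma 3.58.1, R 4.3.3), 1 term per group over all 12 libraries, and Benjamini-Hochberg adjustment over all genes tested. The steps were tested on simulated data. The 23 alternatives covered scaling, the low-count filter, DESeq2 1.42.0, a replicate block, left-out libraries, processed copies and a 1.5-fold threshold. Haemoglobin and immunoglobulin genes were left out as an alternative chosen after seeing the data. The 32 genes and all other lists were chosen with earlier results of these data known. All 32 were named. From other lists, up to 4 genes with the smallest p in a comparison and at least 5 CPM in the higher group could be named, with a fixed set of cell type and sex-linked genes. The genes read with the Mirc11 locus were named besides. Lengths came from GENCODE exons on GRCm38 and sequences from RefSeq on GRCm38.p6. No 2 libraries of a group agreed within sampling noise.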

Additional observations from a re-analysis of the deposited data

Results flagged for a closer look

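The response to challenge differed between the genotypes for 24 of the 32 genes, by edgeR's test of the interaction of genotype and challenge at an adjusted p of 0.05 (35.2% of all genes tested passed in either direction). Each value is the log2 response in KO minus that in WT, with 3 libraries in each of the 4 groups, and none of the causes was tested.

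Among transport and upper glycolysis genes the difference was -0.73 for Slc2a1, 0.54 for Slc2a3, -0.32 for Hk1, -1.59 for Hk2, -0.57 for Gpi1, -0.36 for Pfkl, -1.05 for Aldoa and -0.85 for Tpi1. For the regulator Pfkfb3 it was -1.52. Among the lower steps it was -0.99 for Gapdh, -0.80 for Pgk1, -0.83 for Pgam1, -0.72 for Eno1 and -0.91 for Pkm. Among lactate genes it was -0.81 for Ldha, -0.76 for Slc16a1 and -1.99 for Slc16a3. Among hypoxia genes it was -1.27 for Hif1a, -0.53 for Bnip3, 0.66 for Bnip3l, -1.89 for Ndrg1, -1.70 for Vegfa, 0.54 for Pdk1 and -1.02 for P4ha1. Pdk1 is the gene among these with a called response of opposite sign in the 2 genotypes.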

How the results depend on the processing

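No member's fold change reversed its sign past the threshold under any alternative. Of the values recomputed for single members, 683 of 736 for challenge in KO, 724 of 736 for challenge in WT, 704 of 736 for KO against WT after challenge, 712 of 736 without challenge and 666 of 704 for the interaction kept their side of the threshold. Leaving out each library in turn gave 14 to 19 members called higher and 0 to 2 called lower after challenge in KO, and 23 to 24 and 4 to 5 in WT. For KO against WT it gave 4 to 5 higher and 19 to 21 lower after challenge, and 2 to 4 higher and 0 to 2 lower without it. For the interaction it gave 3 to 4 and 18 to 21. In the same fits, over all genes, challenge in KO gave 2065 to 2606 higher and 1301 to 2329 lower. For challenge in WT these counts were 5063 to 5613 and 4706 to 5361. KO against WT gave 3302 to 3932 and 3739 to 4475 after challenge, and 845 to 1213 and 504 to 971 without it. The interaction gave 2417 to 2975 and 2717 to 3448. These fits tested 17034 to 17101 genes. A 1.5-fold threshold left 8 members called higher after challenge in KO, 0 lower in KO without challenge, 2 higher in KO after challenge and 1 with a larger response in KO. At this threshold, Bnip3, Egln3, Gpi1, Hk1 and Pfkl were no longer called lower in KO after challenge. Bnip3, Gpi1, Hk1 and Pfkl were no longer called as smaller responses in KO. No share of all genes is given at this threshold. The members called lower after challenge in KO, 0 in the reported fit, were 1 with DESeq2 size factors, 4 with upper-quartile scaling and 1 with the DESeq2 test. Over all genes, 2137, 2583 and 2116 were lower in these same fits. Column totals without a scaling factor gave 2 members lower in KO without challenge and 7 higher in KO after it. Fitting only the compared libraries gave 2 lower in KO without challenge. Over all genes, 946 and 974 were lower in KO without challenge in these settings. Without replicate 1 of KO challenged, 2 members (Egln1 and Pfkp) were called lower after challenge in KO. Without replicate 2 of KO unchallenged or replicate 3 of WT unchallenged, 0 were lower in KO without challenge, and without replicate 4 of WT unchallenged 2 were. The cause of these changes was not tested. Against the TMM fit, column totals moved the median log2 fold change of all genes by -0.10 for challenge in WT and by 0.11 for the interaction, and upper-quartile scaling by -0.11 for challenge in WT. Over all genes, column totals gave 4658 higher and 6151 lower for challenge in WT, 4870 and 3361 for KO against WT after challenge and 3836 and 2380 for the interaction. Upper-quartile scaling gave 4634 and 6184, 4606 and 3520, and 3314 and 2680 for the same comparisons, and 2263 and 2583 for challenge in KO. The reported fit had 5411 and 5166, 3792 and 4332, 2791 and 3085, and 2596 and 1915. With TMM-scaled library sizes, 15 of 128 group levels moved beyond their SD, by at most 5.18%. With the longest transcript as the length, the shares in WT unchallenged libraries were 95.97% for Hk1, 32.9% for Pfkl, 9.23% for Pfkm, 79.7% for Pfkfb3, 99.5% for Aldoa, 98.7% for Ldha, 72.4% for Slc16a1 and 90.5% for Bnip3l, which moved by more than 1 SD. Low counts limit Ldhb, Aldoc and Ankrd37.

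The titles give replicate numbers that nothing ties to shared animals or days, and the titles of unchallenged libraries give 2 that differ, of which the one in the sample code was used. Deviations from the group means correlated at -0.318 to 0.249 between same-numbered libraries and at -0.263 to 0.320 between differently numbered ones. With 3 libraries a group, such deviations are tied to each other, so these values do not decide pairing. The numbers were not taken to pair the libraries, because the labels do not say that they do. With a replicate block, 12 members were called higher after challenge in KO in place of 17, and the calls of Hk2, Egln3, Bnip3, Pdk1 and Ankrd37 were lost (adjusted p = 0.0673 for Hk2). The other counts with the block were 24 higher and 4 lower after challenge in WT, 5 higher and 20 lower for KO against WT after challenge, 2 higher and 1 lower without challenge, and 3 higher and 20 lower for the interaction. Over all genes tested, the block gave 1893 higher and 1185 lower after challenge in KO, against 2596 and 1915 in the reported fit. It gave 4997 and 4717 after challenge in WT, and 2606 and 2882 for the interaction. For KO against WT it gave 3594 and 4145 after challenge, and 994 and 714 without it. Replicate 1 occurs only in challenged groups and replicate 4 only in unchallenged groups. The block thus leaves fewer libraries that compare challenge directly.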

Other observations

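Genes that lead pyruvate into mitochondria and those of the pentose phosphate pathway, which makes NADPH and ribose from glucose 6-phosphate, are set beside all genes tested, of which 15.6% rose and 11.5% fell after challenge in KO and 32.4% rose and 30.9% fell in WT. Of 15 tested pyruvate genes, 3 rose and 2 fell in KO and 5 rose and 4 fell in WT, near the shares of all genes. Pdk2, a pyruvate dehydrogenase kinase, fell by 0.64 ± 0.11 in KO (edgeR adjusted p = 0.000588) and by 2.18 ± 0.12 in WT (adjusted p = 6.87e-10), while its relative Pdk3 rose by 0.28 ± 0.06 in KO (adjusted p = 0.00507) and 0.83 ± 0.06 in WT (adjusted p = 2.3e-08). Of 8 tested pentose phosphate genes, 1 rose and 1 fell in KO and 5 rose and 1 fell in WT. Pgd, the phosphogluconate dehydrogenase, rose by 0.28 ± 0.07 in KO (adjusted p = 0.00625) and 0.86 ± 0.07 in WT (adjusted p = 2.42e-08). H6pd, the dehydrogenase of the endoplasmic reticulum, fell by 0.47 ± 0.09 in KO (adjusted p = 0.00104) and 1.21 ± 0.09 in WT (adjusted p = 1.63e-08).

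The 8 NK cell markers did not move alike. In WT, 1 rose and 6 fell after challenge, where 32.4% and 30.9% of all genes tested did. In KO, 0 rose and 8 fell, where 15.6% and 11.5% of all genes did. After challenge, 5 were higher and 1 lower in KO than in WT, where the shares of all genes were 22.7% and 25.9%. The NK cell genes Ncr1 and Klrb1c, which encode the receptors NKp46 and NK1.1, were at 565 to 712 and 569 to 626 CPM in KO challenged, 828 to 849 and 921 to 943 CPM in KO unchallenged, 182 to 206 and 143 to 153 CPM in WT challenged, and 788 to 880 and 922 to 1011 CPM in WT unchallenged libraries. S100a8, a neutrophil gene, was at 186 to 315, 81.5 to 90.1, 393 to 530 and 10.03 to 12.1 CPM in the same groups, and Mpeg1, a macrophage gene, at 231 to 313, 158 to 161, 425 to 483 and 89.4 to 95.5 CPM. The summed levels of 11 B cell and 11 T cell markers were 4559 to 5084 and 354.5 to 394.2 CPM in KO challenged, 3139 to 3333 and 262 to 285 CPM in KO unchallenged, 6862 to 7357 and 220 to 228 CPM in WT challenged, and 4310 to 5165 and 355 to 399 CPM in WT unchallenged libraries. The part of these cells in the values of the 32 genes was not tested.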
